A study of Oreochromis mossambicus with 12 samples.

Results

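Messenger RNA of tilapia head-kidney leukocytes was compared between cultures given heat-killed Streptococcus agalactiae and cultures given PBS, a buffer without bacteria. The comparison used 6 of the 12 libraries of the series for its contrast: bacteria replicates 1, 2 and 3 against PBS replicates 1, 2 and 3, chosen by their labels. Bacteria were given at a multiplicity of infection of 1, meaning 1 bacterium per cell, and the exposure lasted 12 h. The remaining 6 libraries, from cells given sodium nitrite at 1000 μM with or without the same bacteria, also entered the fit. In the main fit they shared its estimate of spread without moving the log2 changes. They also counted in the filter on low values. Where libraries were rescaled or 1 was left out, they could move the log2 changes too. They return in the last comparison. All cells, PBS cells included, came from fish labelled Oreochromis mossambicus and had been cultured overnight on rat tail collagen in RPMI medium with 2% tilapia serum and 1% penicillin and streptomycin. Nothing in the labels ties the 3 libraries of a group to different fish or dishes, and the p-values therefore describe library-to-library spread, possibly of technical origin. Of 28921 gene symbols in the authors' deposited table, 12423 had a mean of at least 1 FPKM (fragments per kilobase of transcript, scaled to library size by the authors) over the 12 libraries and were tested. Levels are in FPKM, which are scaled by length, and changes are bacteria minus PBS on the log2(FPKM + 1) scale with the standard error (SE) of limma's fit over 3 pairs of libraries with the same number.

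Bony fish form their blood cells mainly in the head kidney, whose leukocytes include macrophages, granulocytes, thrombocytes, lymphocytes and their precursors. S. agalactiae is a Gram-positive pathogen of farmed tilapia. Phagocytes sense bacterial wall components and nucleic acids through Toll-like and NOD-like receptors, whose adaptors lead to the transcription factors NF-kB and AP-1. These turn on cytokines, chemokines and metabolic enzymes together with their own inhibitors, and macrophages shift the use of sugars, lipids and iron as they respond. Heat-killed bacteria present such ligands without growing.

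PBS replicate 1 stood apart before any comparison. Its correlation across genes (log2 values, genes not being independent) was 0.849 and 0.809 with PBS replicates 2 and 3, which correlated with each other at 0.953, and the 3 bacteria libraries correlated with one another at 0.950 to 0.973. Ribosomal protein genes took 4.89% of its FPKM sum, against 16.3% to 17.5% in the other PBS libraries and 9.04% to 12.3% in the bacteria libraries. The depth is unknown because the table holds no counts, but steps in the low values of 568 genes put the deepest of the 6 libraries at about 1.21 times the shallowest, PBS replicate 1. Results that rest on this library are given with and without it. Without it, the fit drew the differences between replicate numbers in part from the nitrite and co-treatment libraries.

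Most tested genes were called in the main fit, but not in every setting. In limma's test with Benjamini-Hochberg adjustment 6634 of 12423 genes (53.4%) passed an adjusted p of 0.05. Of all tested genes, 1833 (14.8%) rose and 4801 (38.6%) fell, so that rises made up 27.6% of the calls, and the median log2 change was -0.29. These shares are the background against which the gene groups below are read. All 3 bacteria libraries lay above all 3 PBS libraries for 1717 genes (13.8%) and below them for 4304 (34.6%). Median-ratio scaling, which sets the typical gene to no change, moved the log2 changes of genes with at least 20 FPKM in all 6 libraries up by 0.35 and gave 2919 rises and 2954 falls. The excess of falls over rises therefore depended on the scaling, while no gene called in one direction was called in the other under any scaling tried. The number of calls moved as well. Of the 12423 genes, 5873 were called with median-ratio scaling, 5258 after quantile normalization, 4594 without the pairing and 3723 in the 6 libraries alone. With 1 of the 6 libraries left out, the number ran from 4809 to 7331. Counts of a list without a library are to be read beside this change over all genes.

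The leading rises were mostly from levels near 0. Leading genes here are the first in a ranking by the smallest of the 3 pair differences. The ranking took called genes with a symbol, groups that do not overlap and 3 pair differences of 1 sign. In the higher of both groups, an average of 5 FPKM or more was required. Most genes given with values in the lists below met the same conditions by choice. Their lack of overlap and shared sign across pairs therefore follow from the choice. FPKM values are listed in the order of replicates 1, 2 and 3. The gene acod1, whose enzyme makes itaconate from a citric acid cycle intermediate in activated macrophages, had 1146, 898 and 709 FPKM with bacteria, against 0.31, 0.47 and 1.46 FPKM with PBS (log2 change 9.07 ± 0.34, adjusted p = 2.78e-07). For il-8, a chemokine that draws neutrophils, the values were 3539, 2919 and 1656 FPKM with bacteria, against 2.02, 8.72 and 18.6 FPKM with PBS (log2 change 8.28 ± 0.67, adjusted p = 1.8e-05). Both genes were lowest in PBS replicate 1 and highest in bacteria replicate 1, and neither came near an overlap. The prostaglandin transporter gene slco2a1 had 709, 689 and 426 FPKM with bacteria, against 0.12, 3.05 and 4.80 FPKM with PBS (log2 change 7.64 ± 0.66, adjusted p = 2.67e-05). tp53i3, a p53-inducible oxidoreductase gene, reached 1811, 1158 and 1395 FPKM with bacteria, against 9.48, 3.19 and 22.9 FPKM with PBS (log2 change 7.14 ± 0.46, adjusted p = 5.19e-06). On the log2 scale, the lowest bacteria library of each such gene exceeded the highest PBS library by more than the spread within either group.

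The sulfite oxidase gene suox had 71.3, 80.1 and 63.7 FPKM with bacteria, against 0.03, 0.18 and 0.66 FPKM with PBS (log2 5.84 ± 0.21). The gene of the secreted pattern-recognition protein pentraxin 3, ptx3, had 84.2, 75.5 and 76.8 FPKM with bacteria, against 1.01, 1.45 and 1.30 FPKM with PBS (log2 5.15 ± 0.16). The ptx3 libraries varied little within either group. lacc1, which encodes a metabolic enzyme of macrophages linked to inflammatory disease in humans, had 165, 154 and 169 FPKM with bacteria, against 4.35, 2.22 and 2.09 FPKM with PBS (log2 5.44 ± 0.25). The secreted protein gene crispld2 (log2 6.71 ± 0.21), the guidance factor gene draxin (5.97 ± 0.17), kctd12 (5.75 ± 0.27) and the VEGF receptor gene flt1 (4.95 ± 0.32) rose as well, from levels of at most a few FPKM in every PBS library. Including acod1, il-8, slco2a1, tp53i3 and il12b, described with the cytokines, these are the 12 leading rises by that ranking.

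The leading falls included genes that PBS cells expressed at a high level. epx, the peroxidase of eosinophil granules, had 175, 102 and 102 FPKM with bacteria, against 4714, 6764 and 6381 FPKM with PBS (log2 change -5.58 ± 0.33, adjusted p = 3.37e-06). granzyme, the symbol of a protease of cytotoxic granules, had 67.4, 21.6 and 106 FPKM with bacteria, against 1957, 623 and 951 FPKM with PBS (log2 change -4.26 ± 0.30, adjusted p = 8.42e-06). Every bacteria library of both genes lay below every PBS library, as the ranking required, although granzyme varied severalfold within each group. csf1r, the receptor for the growth factor that keeps macrophages alive, had 2.60, 3.40 and 1.12 FPKM with bacteria, against 71.2, 57.8 and 19.9 FPKM with PBS (log2 change -3.79 ± 0.30, adjusted p = 1.51e-05). entpd1, an ecto-enzyme that removes extracellular ATP, had 2.56, 6.01 and 2.52 FPKM with bacteria, against 163, 148 and 40.9 FPKM with PBS (log2 change -4.50 ± 0.37, adjusted p = 1.84e-05). PBS replicate 3 was the lowest PBS library for csf1r and entpd1, yet it too stood well above the bacteria libraries.

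lrrc19, a leucine-rich repeat membrane protein gene, had 0.33, 0.07 and 0.13 FPKM with bacteria, against 125, 48.4 and 13.2 FPKM with PBS (log2 -5.25 ± 0.52). tinagl1, a matrix-associated protein gene, had 4.89, 3.64 and 5.41 FPKM with bacteria, against 189, 119 and 118 FPKM with PBS (log2 -4.64 ± 0.22). selenop, which encodes the selenium carrier selenoprotein P, had 55.8, 64.8 and 40.5 FPKM with bacteria, against 526, 519 and 289 FPKM with PBS (log2 -3.0 ± 0.18). These genes did not overlap between the groups, a condition of the ranking. The perlecan gene hspg2 was listed at 0 in bacteria replicate 1 and at most 0.04 FPKM in the others, against 10.1, 16.3 and 6.01 FPKM with PBS (log2 -3.44 ± 0.36). The apolipoprotein gene apoa4 (-3.84 ± 0.38), the actin-binding gene ablim1 (-3.62 ± 0.27), the orphan receptor gene gpr141 (-3.46 ± 0.31) and the prolactin receptor gene prlr (-2.98 ± 0.18) completed the 12 leading falls, given as log2 changes. The ranking is not by log2 change, and some genes described further on, such as fabp7 and steap4 among rises and itga6 and lpl among falls, had larger log2 changes than some of these. In bulk RNA, fewer cells of a type and less RNA per cell cannot be told apart.

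**Figure D1:**
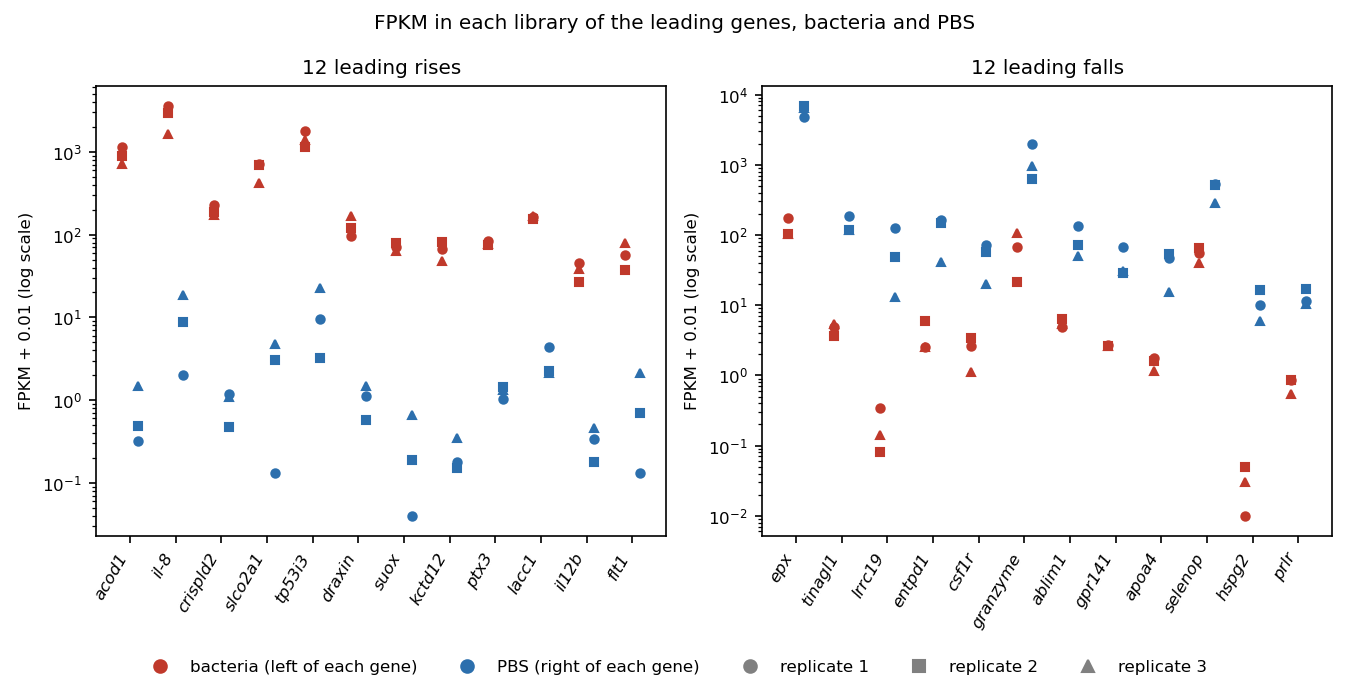
FPKM (log axis, 0.01 added) of the 12 leading rises and 12 leading falls by smallest pair difference in each library, bacteria (red, left of each gene) and PBS (blue, right of each gene); marker shapes give the replicate number. By the rule of choice, the 3 bacteria libraries and the 3 PBS libraries do not overlap in any of the 24 genes. The rises start from a few FPKM or less, except for tp53i3 and il-8.

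Cytokine genes split evenly between rises and falls: 4 of 9 tested members rose and 4 fell, with a median log2 change of -0.27. The rises were il-8, il12b, ebi3 and il10. il12b, the shared subunit of interleukins 12 and 23, had 45.0, 26.9 and 38.0 FPKM with bacteria, against 0.33, 0.17 and 0.45 FPKM with PBS (log2 change 4.81 ± 0.17, adjusted p = 2.15e-07). ebi3, a partner subunit of the interleukin 12 family, had 45.2, 42.0 and 55.2 FPKM with bacteria, against 1.21, 1.67 and 2.54 FPKM with PBS (log2 change 4.13 ± 0.19, adjusted p = 8.64e-07). Both subunit genes were near 0 with PBS and well above it in every bacteria library. il10, an anti-inflammatory cytokine gene, had 0.72, 3.22 and 2.31 FPKM with bacteria, against 0.64, 1.09 and 0.83 FPKM with PBS (log2 change 0.65 ± 0.22, adjusted p = 0.0308). The il10 libraries overlapped, and the call was lost without PBS replicate 2 (log2 0.59, adjusted p = 0.0955), PBS replicate 3 (log2 0.64, adjusted p = 0.0733), bacteria replicate 2 (log2 0.46, adjusted p = 0.147) or bacteria replicate 3 (log2 0.52, adjusted p = 0.124), and without the pairing (log2 0.65, adjusted p = 0.105).

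The falls were tnfsf12, il16, il34 and tnfsf13b. The gene tnfsf12 encodes the TNF-family ligand TWEAK and had 0.20, 0.82 and 0.41 FPKM with bacteria, against 12.6, 12.3 and 6.97 FPKM with PBS (log2 change -2.96 ± 0.26, adjusted p = 2.97e-05). The lymphocyte chemoattractant gene il16 had 62.2, 63.8 and 77.9 FPKM with bacteria, against 275, 133 and 146 FPKM with PBS (log2 change -1.36 ± 0.24, adjusted p = 0.00141). Both were clear of overlap by the rule of choice, with PBS replicate 1 the highest library for il16. il34, another ligand of the csf1r receptor, fell (log2 -1.11 ± 0.26), as did tnfsf13b, the B cell survival factor BAFF (-1.08 ± 0.16). The receptor of TWEAK, tnfrsf12a, fell together with its ligand and had 0.76, 1.64 and 1.91 FPKM with bacteria, against 7.40, 8.10 and 8.75 FPKM with PBS (log2 -1.93 ± 0.17). Among cytokine and chemokine receptors 1 of 14 tested members rose and 6 fell (5 and 6 with median-ratio scaling), with a median log2 change of -0.27. The 42.9% that fell was close to the 38.6% of all genes. The receptor rise was il15ra, which presents interleukin 15 to neighbouring cells, with 141, 98.0 and 153 FPKM with bacteria, against 18.2, 10.5 and 18.5 FPKM with PBS (log2 change 2.99 ± 0.21, adjusted p = 7.92e-06). Beside csf1r and tnfrsf12a, the homing receptor genes cxcr4 (log2 -1.51 ± 0.28) and cxcr5 (-1.44 ± 0.23), the interleukin 6 signal transducer il6st (-0.92 ± 0.16) and the interleukin 1 co-receptor il1rap (-1.30 ± 0.12) fell. The receptor counts were 5 higher and 6 lower without PBS replicate 1.

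In the pattern-recognition list, adaptors, kinases and some recognition genes such as nod2 rose, while several receptors fell. Of this list 8 of 17 tested members rose and 5 fell (11 and 4 with median-ratio scaling), with a median log2 change of 0.33. The adaptor gene myd88, shared by most Toll-like receptors, had 329, 310.0 and 292 FPKM with bacteria, against 66.5, 96.3 and 122 FPKM with PBS (log2 change 1.74 ± 0.23, adjusted p = 0.000282). ripk2, the kinase that carries signals of the NOD receptors, had 140.4, 119 and 176 FPKM with bacteria, against 30.7, 30.6 and 31.7 FPKM with PBS (log2 change 2.17 ± 0.19, adjusted p = 2.6e-05). Neither gene overlapped between the groups, which for ripk2 was a condition of its choice. The other rises were ptx3, card9, an adaptor of lectin receptors (log2 2.47 ± 0.30), pglyrp2, which cuts bacterial peptidoglycan (2.19 ± 0.18), the kinase gene irak1 (2.05 ± 0.16), the peptidoglycan sensor gene nod2 (1.77 ± 0.19) and the adaptor gene tirap (0.49 ± 0.17). tlr5, the receptor of bacterial flagellin, had 21.4, 11.3 and 6.07 FPKM with bacteria, against 226, 74.9 and 34.5 FPKM with PBS (log2 change -2.76 ± 0.19, adjusted p = 7.05e-06). The NOD-like receptor gene nlrc3, a negative regulator in mammals, had 1.55, 1.51 and 2.27 FPKM with bacteria, against 8.94, 5.38 and 4.74 FPKM with PBS (log2 -1.37 ± 0.22). tlr5 was highest in replicate 1 and lowest in replicate 3 in both groups, and the groups stayed apart within each pair. The remaining falls were the double-stranded RNA sensor gene tlr3 (-1.32 ± 0.30), the scavenger receptor gene marco (-0.83 ± 0.15) and nlrx1 (-0.55 ± 0.18), as log2 changes; the call of nlrx1 was lost after median-ratio scaling (log2 -0.21, adjusted p = 0.305).

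Genes of the NF-kB pathway rose together, without a fall: 16 of 26 tested members rose and 0 fell (20 and 0 with median-ratio scaling), with a median log2 change of 0.92, and 17 rose and 0 fell at an unadjusted p under 0.05. In the main fit 61.5% of the list rose, against 14.8% of all genes. Inhibitors of the pathway led. tnfaip3, the ubiquitin-editing enzyme A20, had 249.6, 205 and 163 FPKM with bacteria, against 19.1, 15.7 and 23.3 FPKM with PBS (log2 change 3.34 ± 0.20, adjusted p = 3.61e-06). Its partner tnip2 had 158, 134 and 113 FPKM with bacteria, against 8.23, 11.9 and 15.2 FPKM with PBS (log2 change 3.44 ± 0.24, adjusted p = 8.32e-06). nfkbia, the inhibitor IkB-alpha, had 136, 118 and 115 FPKM with bacteria, against 5.20, 37.0 and 33.0 FPKM with PBS (log2 change 2.63 ± 0.55, adjusted p = 0.00351). The nfkbia change rested in part on PBS replicate 1, far below the other PBS libraries, and was 1.67 without it (adjusted p = 6.03e-06). The list's genes nfkbid (log2 2.76 ± 0.22), tnip1 (2.26 ± 0.14), nfkbie (2.14 ± 0.34) and bcl3 (1.98 ± 0.20), an atypical IkB protein, rose as well.

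All 4 tested genes of the transcription factors themselves rose, with log2 changes of 2.53 ± 0.73 for nfkb2, 1.15 ± 0.12 for relb, 1.03 ± 0.24 for nfkb1 and 0.81 ± 0.12 for rel. Without PBS replicate 1 the log2 change of nfkb2 was 1.25 and that of nfkb1 0.68; nfkb2 stood at 3.26 FPKM in that library, against 62.0 and 56.7 FPKM in PBS replicates 2 and 3. The adaptor gene traf3 had a log2 change of 2.32 ± 0.49, and 1.49 without PBS replicate 1. The kinase genes ikbke (1.88 ± 0.25), tbk1 (0.56 ± 0.11) and map3k8 (0.46 ± 0.17) and the scaffold gene bcl10 (1.07 ± 0.19) completed the rises. The call of map3k8 was lost without PBS replicate 1 (log2 0.36, adjusted p = 0.1). The core kinase subunits were not called, at 0.39 ± 0.17 for ikbkb and 0.08 ± 0.11 for ikbkg.

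Among AP-1, EGR and other early transcription factors 5 of 14 tested members rose and 2 fell (7 and 2 with median-ratio scaling), with a median log2 change of 0.42. jund, a subunit of AP-1, had 51.0, 54.5 and 57.5 FPKM with bacteria, against 2.60, 4.48 and 4.61 FPKM with PBS (log2 change 3.52 ± 0.14, adjusted p = 4.8e-07). The nuclear receptor gene nr4a3 had 42.9, 36.1 and 19.96 FPKM with bacteria, against 0.91, 2.68 and 3.52 FPKM with PBS (log2 change 3.36 ± 0.46, adjusted p = 0.000348). The groups were far apart for jund, whose bacteria libraries were within a few FPKM of one another. The AP-1 members fosl1 (log2 2.68 ± 0.36) and batf (1.93 ± 0.16) and the early gene ier2 (1.07 ± 0.22) also rose. klf6, a zinc-finger factor gene, fell and had 43.2, 47.3 and 47.3 FPKM with bacteria, against 72.8, 85.3 and 88.0 FPKM with PBS (log2 -0.82 ± 0.15). The other fall was egr3 (-0.78 ± 0.21), while egr1 (0.43 ± 0.28) and atf3 (0.00 ± 0.14) were not called at 12 h.

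Feedback inhibitors had the largest rises of the SOCS and JAK-STAT list. In this list 5 of 17 tested members rose and 4 fell (6 and 0 with median-ratio scaling), with a median log2 change of -0.05. socs1 had 39.4, 52.6 and 96.3 FPKM with bacteria, against 4.39, 9.10 and 11.4 FPKM with PBS (log2 change 2.76 ± 0.24, adjusted p = 3e-05) and was highest in replicate 3 of both groups. socs3, which limits interleukin 6 signals, had 197, 216 and 243 FPKM with bacteria, against 19.1, 41.9 and 77.4 FPKM with PBS (log2 change 2.43 ± 0.42, adjusted p = 0.00127). Other rises included the phosphatase gene ptpn6 (log2 1.58 ± 0.23) and the kinase gene jak1 (0.62 ± 0.16). The falls were small, at -0.89 ± 0.23 for cish, -0.72 ± 0.20 for socs5, -0.54 ± 0.17 for pias4 and -0.51 ± 0.18 for ptpn11, and after median-ratio scaling all 4 calls were lost, with log2 changes of -0.55, -0.39, -0.23 and -0.16. For this list the counts were 5 higher and 1 lower without bacteria replicate 1 and 5 higher and 2 lower without bacteria replicate 3.

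Of interferon regulators and response genes 5 of 13 tested members rose and 1 fell (7 and 0 with median-ratio scaling), with a median log2 change of 0.58. irf7, a master factor of type I interferon genes, had 41.0, 25.7 and 32.3 FPKM with bacteria, against 18.0, 10.1 and 9.36 FPKM with PBS (log2 change 1.36 ± 0.22, adjusted p = 0.000888). ifi35, an interferon-induced gene, had 169, 153 and 145 FPKM with bacteria, against 78.8, 46.8 and 52.5 FPKM with PBS (log2 change 1.41 ± 0.17, adjusted p = 0.000152). The groups did not overlap for either gene, as the choice required. The antiviral adaptor gene mavs was the fall (log2 -0.58 ± 0.16), and its call was lost after median-ratio scaling (log2 -0.27, adjusted p = 0.148), quantile normalization (log2 -0.25, adjusted p = 0.201) and without bacteria replicate 1 (log2 -0.44, adjusted p = 0.067). With a library left out, the interferon counts were 3 higher and 1 lower without bacteria replicate 2. In antigen presentation 5 of 11 tested members rose and 3 fell (5 and 0 with median-ratio scaling), with a median log2 change of 0.09. cd83, a marker of mature dendritic cells, had 379, 457 and 452 FPKM with bacteria, against 35.3, 25.0 and 30.2 FPKM with PBS (log2 change 3.80 ± 0.19, adjusted p = 1.22e-06). tap1, which carries peptides to class I molecules, had 64.2, 73.8 and 95.8 FPKM with bacteria, against 28.6, 25.6 and 33.0 FPKM with PBS (log2 change 1.38 ± 0.16, adjusted p = 0.000133). cd83 rose many-fold in every pair. cd74, the chaperone of class II molecules, had 432, 571 and 538 FPKM with bacteria, against 795, 1420.3 and 783 FPKM with PBS (log2 -0.91 ± 0.29); its call was lost after median-ratio scaling (log2 -0.55, adjusted p = 0.148) and without the pairing (log2 -0.91, adjusted p = 0.0546), and also under upper-quartile scaling (adjusted p = 0.0511), in the 6 libraries alone (adjusted p = 0.0703) and without PBS replicate 2, bacteria replicate 1 or bacteria replicate 2 (adjusted p = 0.0932, 0.0945 and 0.0996). Of this list, the counts were 5 higher and 1 lower without PBS replicate 2, 5 higher and 0 lower without bacteria replicate 1, 5 higher and 0 lower without bacteria replicate 2 and 5 higher and 1 lower without bacteria replicate 3.

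**Figure D2:**
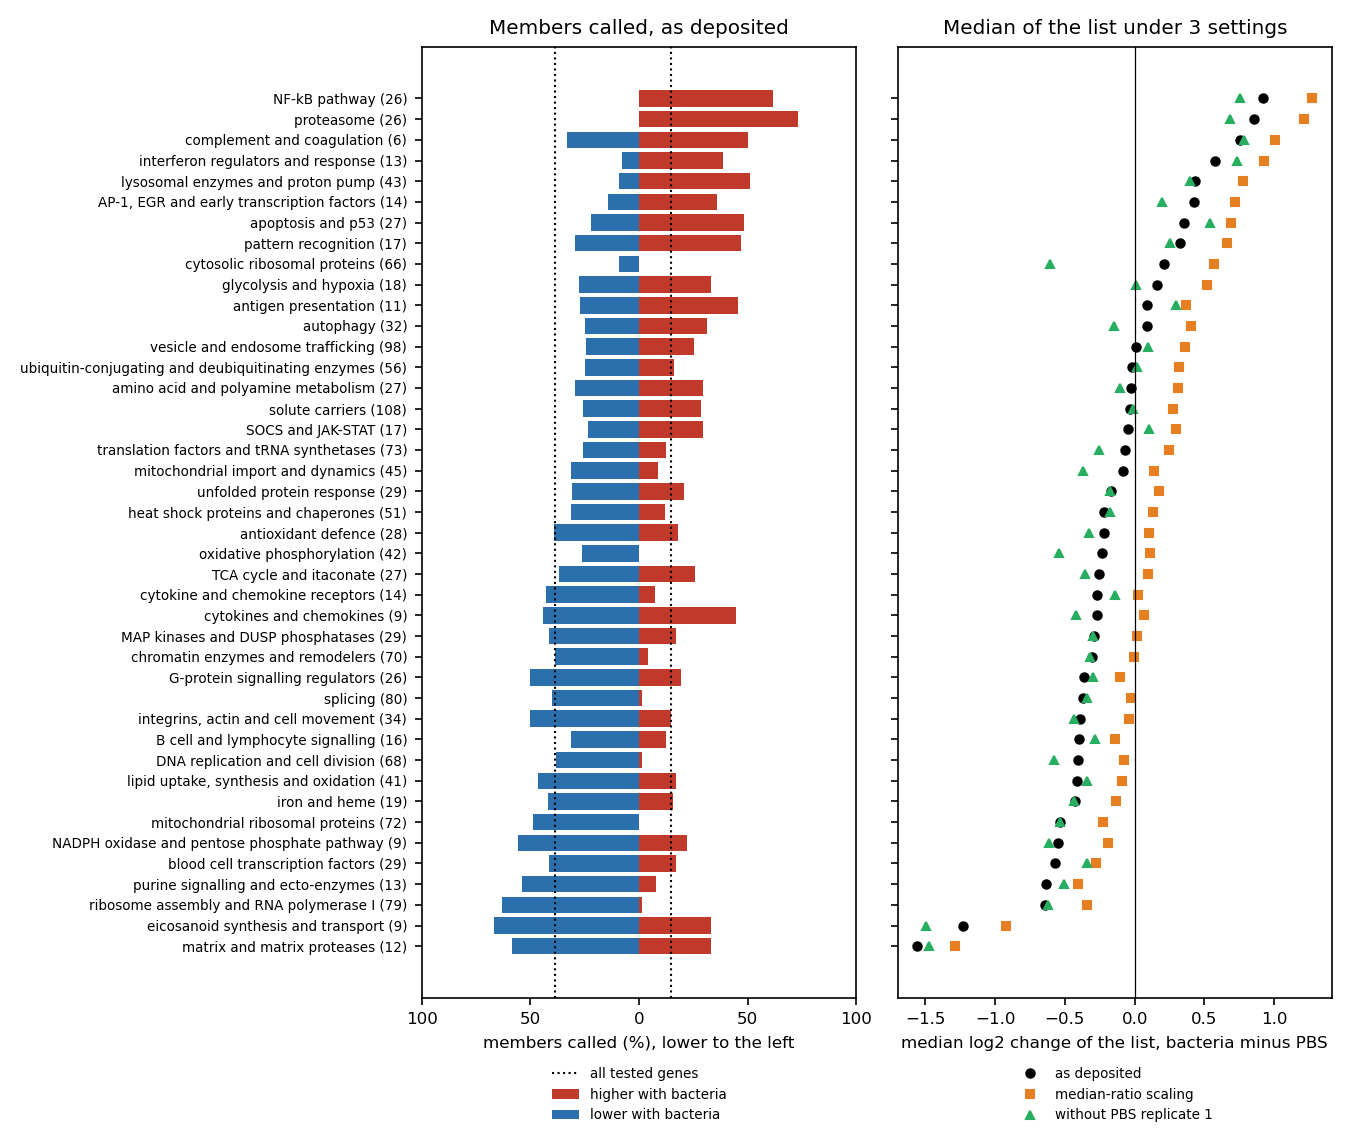
Left, share of each list's tested members (number in brackets) called higher (red) or lower (blue, drawn to the left) with bacteria, with dotted lines at the shares over all tested genes, 14.8% and 38.6%. Right, median log2 change of each list as deposited, without PBS replicate 1 and after median-ratio scaling, which moves every list to the right. Leaving out PBS replicate 1 puts cytosolic ribosomal proteins at -0.60, against 0.21 with it.

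In eicosanoid synthesis and transport all 9 tested members were called in the main fit, 3 higher and 6 lower, with a median log2 change of -1.23. That is 33.3% and 66.7% of the list, against 14.8% and 38.6% of all genes. After quantile normalization 3 rose and 4 fell, where 23.1% of all genes fell. The counts were the same without the pairing, where 26.3% of all genes fell. Without PBS replicate 2 or bacteria replicate 2, 3 rose and 5 fell. ptgs2, the inducible cyclooxygenase that starts prostaglandin synthesis, had 72.8, 39.6 and 44.8 FPKM with bacteria, against 2.91, 2.40 and 3.55 FPKM with PBS (log2 change 3.72 ± 0.18, adjusted p = 1.06e-06). alox5, the lipoxygenase that starts leukotriene synthesis, had 96.3, 61.6 and 52.3 FPKM with bacteria, against 695, 374 and 297 FPKM with PBS (log2 change -2.64 ± 0.16, adjusted p = 3.59e-06). Its helper protein gene alox5ap had 72.6, 57.8 and 38.3 FPKM with bacteria, against 335, 270.4 and 219.8 FPKM with PBS (log2 change -2.29 ± 0.22, adjusted p = 5.26e-05). In all 3 genes the groups were separate by the rule of choice, and alox5 and alox5ap were highest in replicate 1 of both groups. The phospholipase gene pla2g4a, which releases arachidonic acid, rose (log2 0.65 ± 0.13), as did the transporter gene slco2a1. The falls besides the lipoxygenase branch were the prostaglandin E synthase genes ptges (-1.96 ± 0.20) and ptges2 (-0.69 ± 0.14), the prostaglandin reductase gene ptgr2 (-1.66 ± 0.19) and the epoxide hydrolase gene ephx2 (-1.23 ± 0.33).

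In glycolysis and hypoxia 6 of 18 tested members rose and 5 fell (8 and 5 with median-ratio scaling), with a median log2 change of 0.16. pfkfb3, the enzyme that raises the main activator of glycolysis, had 168, 105 and 194 FPKM with bacteria, against 2.27, 5.02 and 25.5 FPKM with PBS (log2 change 4.24 ± 0.51, adjusted p = 0.000169). The peptide hormone gene adm, a target of hypoxia factors, had 106, 132 and 103 FPKM with bacteria, against 5.33, 11.7 and 18.9 FPKM with PBS (log2 change 3.28 ± 0.39, adjusted p = 0.000167). For both genes PBS replicate 3 was the highest PBS library but stayed below every bacteria library, as their choice required. The mitophagy receptor gene bnip3 (log2 -1.87 ± 0.20) and the oxygen sensor gene egln1 (-1.52 ± 0.14), which are also known hypoxia targets, fell. In the citric acid cycle and itaconate list 7 of 27 tested members rose and 10 fell (8 and 3 with median-ratio scaling), with a median log2 change of -0.26. Beside acod1 and lacc1, the succinyl-CoA synthetase gene sucla2 rose, with 101, 89.7 and 120.1 FPKM with bacteria, against 19.7, 18.9 and 25.6 FPKM with PBS (log2 2.22 ± 0.12). pdhx, a subunit of pyruvate dehydrogenase, had 12.0, 16.7 and 19.4 FPKM with bacteria, against 38.7, 30.2 and 31.1 FPKM with PBS (log2 -1.03 ± 0.21), and idh3g, of isocitrate dehydrogenase, fell by less (log2 -0.79 ± 0.14), a call lost without the pairing (log2 -0.79, adjusted p = 0.116).

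In amino acid and polyamine metabolism 8 of 27 tested members rose and 8 fell (11 and 5 with median-ratio scaling), with a median log2 change of -0.03. arg2, an arginase that competes with nitric oxide synthase for arginine, had 617, 348 and 410.2 FPKM with bacteria, against 15.8, 21.4 and 46.1 FPKM with PBS (log2 change 4.10 ± 0.46, adjusted p = 0.000123). kynu, which breaks down kynurenine from tryptophan, had 48.6, 71.0 and 92.7 FPKM with bacteria, against 6.61, 17.5 and 12.0 FPKM with PBS (log2 2.51 ± 0.35). Both rose in every pair, and arg2 was highest in bacteria replicate 1. haao, a later enzyme of the kynurenine route, fell and had 14.3, 19.5 and 16.7 FPKM with bacteria, against 115, 63.2 and 41.2 FPKM with PBS (log2 -1.94 ± 0.30). The alanine transaminase gene gpt had 0.95, 0.89 and 1.38 FPKM with bacteria, against 16.0, 14.4 and 12.4 FPKM with PBS (log2 -2.88 ± 0.25). The groups did not overlap for haao or gpt, which was a condition of their choice. Of the amino acid list, the counts were 5 higher and 6 lower without bacteria replicate 1.

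Lipid genes were called in shares near those of all genes: 7 of 41 tested members rose and 19 fell (10 and 11 with median-ratio scaling), with a median log2 change of -0.41, that is 17.1% and 46.3% of the list, against 14.8% and 38.6% of all genes. lpl, the lipase that frees fatty acids from lipoproteins, had 21.1, 30.6 and 142 FPKM with bacteria, against 442, 692 and 887 FPKM with PBS (log2 change -3.80 ± 0.43, adjusted p = 0.000132). Bacteria replicate 3 was well above the other bacteria libraries for lpl, and still below every PBS library. fabp7, a fatty acid-binding protein gene, had 21.8, 99.1 and 142 FPKM with bacteria, against 0, 0.32 and 4.89 FPKM with PBS (log2 change 5.12 ± 0.36, adjusted p = 7.73e-06), PBS replicate 1 being listed at 0. The fatty acid elongase gene elovl7 had 12.7, 13.1 and 10.2 FPKM with bacteria, against 0.08, 0.13 and 0.94 FPKM with PBS (log2 3.28 ± 0.32). Both rising genes were at or near 0 in PBS replicates 1 and 2. plin2, the coat protein of lipid droplets, rose (log2 1.81 ± 0.60), and by 0.77 without PBS replicate 1. For lipid genes the counts were 4 higher and 15 lower without bacteria replicate 2.

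Antioxidant genes were close to the background too: 5 of 28 tested members rose and 11 fell (7 and 8 with median-ratio scaling), with a median log2 change of -0.22, that is 17.9% and 39.3% of the list. Enzymes of glutathione synthesis rose. gss, glutathione synthetase, had 256, 275 and 175 FPKM with bacteria, against 23.5, 23.6 and 47.2 FPKM with PBS (log2 change 2.92 ± 0.39, adjusted p = 0.000306). gclm, the modifier subunit of the step before it, had 35.3, 47.3 and 45.0 FPKM with bacteria, against 18.3, 21.2 and 24.3 FPKM with PBS (log2 change 0.96 ± 0.15, adjusted p = 0.00073). Both were separate from PBS in every library, as their choice required. The catalytic subunit gene gclc was called too (log2 0.59 ± 0.17), but not without the pairing (log2 0.59, adjusted p = 0.119) or without bacteria replicate 1 (log2 0.46, adjusted p = 0.0857). hmox1, heme oxygenase 1, fell and had 236, 289 and 184 FPKM with bacteria, against 824, 784 and 703 FPKM with PBS (log2 change -1.72 ± 0.27, adjusted p = 0.000805). The glutathione transferase gene gstk1 had 3.02, 4.89 and 5.03 FPKM with bacteria, against 20.2, 16.5 and 13.5 FPKM with PBS (log2 -1.75 ± 0.22). Neither of these falls showed an overlap, by the rule of choice. The antioxidant counts were 3 higher and 9 lower without bacteria replicate 1.

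Iron genes were likewise close to the background: 3 of 19 tested members rose and 8 fell (4 and 3 with median-ratio scaling), with a median log2 change of -0.43, that is 15.8% and 42.1% of the list. steap4, a ferric reductase of inflamed tissue, had 86.6, 45.0 and 39.9 FPKM with bacteria, against 1.24, 0.31 and 1.21 FPKM with PBS (log2 change 4.88 ± 0.24, adjusted p = 1.21e-06). slc40a1, the iron exporter ferroportin, had 1.53, 1.76 and 1.74 FPKM with bacteria, against 37.7, 11.7 and 5.19 FPKM with PBS (log2 change -2.44 ± 0.58, adjusted p = 0.00684). The exporter was even across bacteria libraries and varied severalfold across PBS libraries, with PBS replicate 1 the highest. For iron genes the counts were 1 higher and 5 lower without bacteria replicate 1 and 2 higher and 5 lower without bacteria replicate 2. Of the NADPH oxidase and pentose phosphate genes 2 of 9 tested members rose and 5 fell (3 and 3 with median-ratio scaling), with a median log2 change of -0.55. The rises were oxidase subunits. ncf1 (p47phox) had 274, 313 and 342 FPKM with bacteria, against 161, 189.6 and 225 FPKM with PBS (log2 0.70 ± 0.16), and ncf4 (p40phox) rose by a similar amount (log2 0.61 ± 0.13); both calls were lost when the 6 libraries were fitted alone (adjusted p = 0.066 and 0.0805). The pentose phosphate enzymes rpia (log2 -1.71 ± 0.24) and h6pd (-1.33 ± 0.25) fell. The counts of this small list were 2 higher and 3 lower without PBS replicate 3, 2 higher and 3 lower without bacteria replicate 1, 2 higher and 3 lower without bacteria replicate 2 and 2 higher and 3 lower without bacteria replicate 3.

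Lysosomal genes rose more often than genes at large: 22 of 43 tested members rose and 4 fell (28 and 4 with median-ratio scaling), with a median log2 change of 0.43, which is 51.2% of the list higher, against 14.8% of all genes. Subunits of the proton pump that acidifies lysosomes were among them. atp6v1a had 404, 433 and 366 FPKM with bacteria, against 42.2, 70.5 and 78.7 FPKM with PBS (log2 change 2.68 ± 0.20, adjusted p = 1.11e-05). atp6v1e1 had 438, 524 and 639 FPKM with bacteria, against 106, 141 and 191 FPKM with PBS (log2 1.89 ± 0.14). Every bacteria library of both subunits exceeded every PBS library, which for atp6v1a was a condition of its choice. gns, an enzyme that degrades heparan sulfate, had 140.0, 202 and 221 FPKM with bacteria, against 27.4, 25.8 and 38.8 FPKM with PBS (log2 change 2.57 ± 0.16, adjusted p = 3.59e-06). ids, which acts on the same substrates, fell and had 5.25, 7.24 and 6.35 FPKM with bacteria, against 34.5, 30.7 and 24.6 FPKM with PBS (log2 change -2.08 ± 0.20, adjusted p = 4.74e-05). The peptidase gene tpp1 had 144, 188 and 172 FPKM with bacteria, against 405, 412 and 303 FPKM with PBS (log2 -1.14 ± 0.21). The 4 falls were ids, tpp1, galns (-1.24 ± 0.29) and smpd1 (-0.77 ± 0.16), all hydrolases, as log2 changes. atp6v1f (log2 2.52 ± 0.69) and the cathepsin A gene ctsa (1.42 ± 0.43) were far lower in PBS replicate 1 than in the other PBS libraries, and without it their log2 changes were 1.33 and 0.70.

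Among genes of vesicle and endosome trafficking 25 of 98 tested members rose and 24 fell (42 and 17 with median-ratio scaling), with a median log2 change of 0.01. snx10, a sorting nexin needed for acid secretion in osteoclasts of mammals, had 403, 365 and 371 FPKM with bacteria, against 32.5, 29.7 and 35.4 FPKM with PBS (log2 change 3.51 ± 0.15, adjusted p = 6.3e-07). rab20, a small GTPase of phagosomes, had 336, 250.2 and 192 FPKM with bacteria, against 22.1, 29.6 and 29.0 FPKM with PBS (log2 change 3.20 ± 0.23, adjusted p = 9.53e-06). rab31 fell and had 18.8, 26.8 and 29.4 FPKM with bacteria, against 165, 108 and 92.9 FPKM with PBS (log2 change -2.22 ± 0.27, adjusted p = 0.000201). These groups lay several-fold apart, with no overlap by the rule of choice, and snx2 fell too (log2 -1.65 ± 0.14). For trafficking genes the counts were 14 higher and 22 lower without PBS replicate 2, 16 higher and 21 lower without bacteria replicate 1 and 12 higher and 19 lower without bacteria replicate 2. In autophagy 10 of 32 tested members rose and 8 fell (13 and 5 with median-ratio scaling), with a median log2 change of 0.08. sqstm1, the cargo receptor p62, had 606, 679.6 and 531 FPKM with bacteria, against 18.0, 280.1 and 225 FPKM with PBS (log2 change 2.50 ± 0.71, adjusted p = 0.0149). PBS replicate 1 was far below the other PBS libraries, and without it the log2 change of sqstm1 was 1.28 (adjusted p = 8.27e-05); without bacteria replicate 1 the call was lost (log2 2.06, adjusted p = 0.0713). atg4d (log2 1.29 ± 0.12) rose, while wipi1 (-1.88 ± 0.21) and the starting kinase gene ulk1 (-1.21 ± 0.20) fell. Autophagy counts were 8 higher and 5 lower without bacteria replicate 1 and 8 higher and 5 lower without bacteria replicate 2.

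The proteasome degrades ubiquitin-tagged proteins. Of its genes 19 of 26 tested members rose and 0 fell (23 and 0 with median-ratio scaling), with a median log2 change of 0.86, and 21 rose and 0 fell at an unadjusted p under 0.05. In the main fit 73.1% of the list rose, against 14.8% of all genes. Changes were modest in size. psmb1, a core subunit, had 176, 229.7 and 236 FPKM with bacteria, against 87.0, 101 and 143 FPKM with PBS (log2 change 0.97 ± 0.17, adjusted p = 0.00124). psma2 had 151, 181 and 198 FPKM with bacteria, against 77.9, 85.4 and 125 FPKM with PBS (log2 change 0.89 ± 0.17, adjusted p = 0.00228). PBS replicate 3 came closest to the bacteria libraries for both subunits without reaching them, as their choice required. The list's median was 1.19, 0.92 and 0.37 in pairs 1, 2 and 3, and 0.69 without PBS replicate 1, with 20 rises. For 6 of the 26 genes PBS replicate 1 was at least 1 log2 unit below all other 11 libraries of the series. The proteasome counts were 11 higher and 0 lower without bacteria replicate 1, where 1383 of all 12423 genes rose. Without the pairing, 6 rose and 0 fell, where 10.7% of all genes rose.

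Of ubiquitin-conjugating and deubiquitinating enzymes 9 of 56 tested members rose and 14 fell (23 and 5 with median-ratio scaling), with a median log2 change of -0.02. That is 16.1% and 25.0% of the list, against 14.8% and 38.6% of all genes. The balance of this list depended on the scaling, as did that of all genes (23.5% higher and 23.8% lower with median-ratio scaling). usp33 (log2 1.04 ± 0.17) and usp11 (1.01 ± 0.21) rose, and usp46 (-1.99 ± 0.25) and ube2r2 (-1.13 ± 0.19) fell. In this list the counts were 14 higher and 12 lower without PBS replicate 1, 4 higher and 7 lower without bacteria replicate 1, 4 higher and 8 lower without bacteria replicate 2 and 7 higher and 9 lower without bacteria replicate 3. Chaperones were somewhat below the background: 6 of 51 tested members rose and 16 fell (9 and 5 with median-ratio scaling), with a median log2 change of -0.22. That is 11.8% and 31.4% of the list, against 14.8% and 38.6% of all genes. With median-ratio scaling 23.8% of all genes fell. After quantile normalization 8 of the list fell, where 23.1% of all genes did. The abundant hsp70 gene was not called, with 1595, 1599.7 and 1308 FPKM with bacteria, against 1579, 1276 and 1334 FPKM with PBS (log2 0.10 ± 0.20, adjusted p = 0.68). It was called higher only when median-ratio scaling or quantile normalization was combined with leaving out PBS replicate 1 (log2 0.48, adjusted p = 0.0164 with the first). hspa13 rose and had 27.8, 22.1 and 23.4 FPKM with bacteria, against 9.05, 10.8 and 15.9 FPKM with PBS (log2 1.01 ± 0.19). bag2, a regulator of hsp70, fell and had 0.97, 2.40 and 2.34 FPKM with bacteria, against 4.59, 18.8 and 17.8 FPKM with PBS (log2 -2.18 ± 0.26). bag2 was lowest in replicate 1 of both groups. Chaperone counts were 5 higher and 6 lower without bacteria replicate 1 and 3 higher and 9 lower without bacteria replicate 2.

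In the unfolded protein response 6 of 29 tested members rose and 9 fell (10 and 3 with median-ratio scaling), with a median log2 change of -0.17. chac1, a glutathione-degrading stress gene, had 225, 152 and 194 FPKM with bacteria, against 48.0, 84.0 and 85.1 FPKM with PBS (log2 1.41 ± 0.24). The stress transcription factor gene ddit3 (CHOP) had 37.2, 37.4 and 47.2 FPKM with bacteria, against 21.2, 19.1 and 14.9 FPKM with PBS (log2 1.11 ± 0.19). Neither overlapped between groups, by the rule of choice. creb3l2, a membrane-bound factor of the secretory pathway, fell and had 1.51, 2.18 and 2.48 FPKM with bacteria, against 7.80, 7.93 and 6.82 FPKM with PBS (log2 -1.49 ± 0.16). The counts of this list were 3 higher and 4 lower without bacteria replicate 1 and 3 higher and 5 lower without bacteria replicate 2. Of apoptosis and p53 genes 13 of 27 tested members rose and 6 fell (15 and 3 with median-ratio scaling), with a median log2 change of 0.36. gadd45b, a growth arrest gene and NF-kB target, had 176, 266 and 234 FPKM with bacteria, against 11.9, 23.4 and 24.4 FPKM with PBS (log2 change 3.48 ± 0.21, adjusted p = 3.59e-06). The initiator caspase gene casp9 (log2 1.97 ± 0.19), the necroptosis effector gene mlkl (1.71 ± 0.18), the survival genes bcl2l1 (1.25 ± 0.16) and xiap (0.73 ± 0.14) and the apoptosome gene apaf1 (0.71 ± 0.13) rose, so genes known to promote and to block cell death were both among the rises. ddit4, an inhibitor of mTOR, fell and had 4.82, 4.37 and 3.99 FPKM with bacteria, against 59.0, 22.2 and 21.2 FPKM with PBS (log2 change -2.54 ± 0.25, adjusted p = 5.69e-05). sesn1, another p53-inducible inhibitor of mTOR, had 6.17, 6.80 and 4.92 FPKM with bacteria, against 21.9, 44.4 and 15.9 FPKM with PBS (log2 -1.91 ± 0.27). Both fell in all 3 pairs without overlap, as the choice required. bax was called (log2 0.39 ± 0.14) but not without any one library other than PBS replicate 1 (adjusted p up to 0.142, without bacteria replicate 2), and bcl2 was not called (log2 -0.22 ± 0.15, adjusted p = 0.229). For cell death genes the counts were 14 higher and 10 lower without PBS replicate 1.

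Of MAP kinases and their DUSP phosphatases 5 of 29 tested members rose and 12 fell (8 and 9 with median-ratio scaling), with a median log2 change of -0.29. That is 17.2% and 41.4% of the list, close to the 14.8% and 38.6% of all genes. dusp16, which switches off JNK and p38, had 138, 113 and 106 FPKM with bacteria, against 16.2, 30.3 and 28.0 FPKM with PBS (log2 change 2.25 ± 0.23, adjusted p = 6.67e-05). map3k4, an upstream kinase, had 1.50, 1.59 and 1.69 FPKM with bacteria, against 8.54, 10.7 and 6.53 FPKM with PBS (log2 change -1.86 ± 0.20, adjusted p = 7.93e-05). dusp7 rose (log2 0.77 ± 0.12) and map3k21 fell (-1.59 ± 0.20). MAP kinase counts were 3 higher and 10 lower without bacteria replicate 1 and 3 higher and 10 lower without bacteria replicate 2. Of regulators of G-protein and cyclic nucleotide signals 5 of 26 tested members rose and 13 fell (9 and 8 with median-ratio scaling), with a median log2 change of -0.36. rgs17 (log2 1.36 ± 0.17) and the G-protein subunit gene gnb4 (1.50 ± 0.13) rose. The cyclic AMP phosphodiesterase gene pde4c had 0.85, 2.62 and 1.40 FPKM with bacteria, against 18.3, 27.02 and 9.95 FPKM with PBS (log2 -2.84 ± 0.25), and pde7b fell as well (-2.45 ± 0.33). G-protein counts were 4 higher and 8 lower without bacteria replicate 1. Of purine signalling genes 1 of 13 tested members rose and 7 fell (2 and 5 with median-ratio scaling), with a median log2 change of -0.64. The rise was the receptor gene p2ry8, with 98.2, 76.5 and 81.8 FPKM with bacteria, against 26.0, 19.7 and 27.9 FPKM with PBS (log2 1.77 ± 0.20). Beside entpd1, adenosine deaminase (ada) fell, with 9.36, 12.2 and 9.57 FPKM with bacteria, against 46.8, 34.0 and 23.2 FPKM with PBS (log2 -1.60 ± 0.20). For purine genes the counts were 1 higher and 4 lower without bacteria replicate 1.

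Solute carriers were the longest list, and 31 of 108 tested members rose and 28 fell (42 and 19 with median-ratio scaling), with a median log2 change of -0.03. slc25a35, a mitochondrial carrier, had 204, 184 and 211 FPKM with bacteria, against 14.0, 7.71 and 12.6 FPKM with PBS (log2 change 4.05 ± 0.15, adjusted p = 2.56e-07). The riboflavin transporter gene slc52a3 had 0.37, 0.42 and 0.47 FPKM with bacteria, against 14.4, 9.44 and 6.21 FPKM with PBS (log2 change -2.89 ± 0.24, adjusted p = 2.1e-05). Both were nearly constant within the bacteria group and, by the rule of choice, had no overlap with PBS. The copper importer gene slc31a1 (log2 2.13 ± 0.24) and the zinc exporter gene slc30a1 (1.98 ± 0.34) rose, and the organelle sodium-proton exchanger gene slc9a7 fell (-2.23 ± 0.22). slc31a1 and slc30a1 were picked for the text after their values were seen.

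Of genes of integrins, actin and cell movement 5 of 34 tested members rose and 17 fell (9 and 12 with median-ratio scaling), with a median log2 change of -0.39, with 14.7% of the list higher, against 14.8% of all genes, while 38.6% of all genes fell. itga6, a laminin receptor subunit, had 0.44, 0.61 and 0.33 FPKM with bacteria, against 49.1, 26.2 and 5.88 FPKM with PBS (log2 change -3.86 ± 0.52, adjusted p = 0.000337). gsn, the actin-severing protein gelsolin, had 10.2, 15.9 and 15.7 FPKM with bacteria, against 51.9, 129 and 84.9 FPKM with PBS (log2 change -2.51 ± 0.23, adjusted p = 4.12e-05). vav1, a signalling gene of blood cells, rose and had 288, 252 and 197 FPKM with bacteria, against 66.9, 42.5 and 57.2 FPKM with PBS (log2 change 2.13 ± 0.23, adjusted p = 8.32e-05). None of the 3 overlapped, which the choice of such genes required. For these cytoskeletal genes the counts were 2 higher and 16 lower without PBS replicate 2, 2 higher and 13 lower without bacteria replicate 1, 2 higher and 13 lower without bacteria replicate 2 and 2 higher and 14 lower without bacteria replicate 3. Of matrix genes and matrix proteases 4 of 12 tested members rose and 7 fell, with a median log2 change of -1.56. The gelatinase gene mmp2 had 2.56, 4.86 and 5.07 FPKM with bacteria, against 45.9, 39.1 and 35.4 FPKM with PBS (log2 -3.03 ± 0.23). Of 6 complement and coagulation genes 3 rose and 2 fell. serpine2, a thrombin inhibitor, had 402, 209 and 292 FPKM with bacteria, against 62.1, 60.3 and 54.2 FPKM with PBS (log2 2.29 ± 0.20), and tissue factor, f3, had 5.15, 7.20 and 12.7 FPKM with bacteria, against 2.82, 3.81 and 3.97 FPKM with PBS (log2 0.97 ± 0.21). Neither gene overlapped between the groups.

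Of blood cell transcription factors 5 of 29 tested members rose and 12 fell (6 and 9 with median-ratio scaling), with a median log2 change of -0.57. That is 17.2% and 41.4% of the list, close to the 14.8% and 38.6% of all genes. cebpa, a factor of granulocyte and monocyte precursors, had 41.3, 48.9 and 48.6 FPKM with bacteria, against 194, 263 and 154 FPKM with PBS (log2 change -2.08 ± 0.22, adjusted p = 8.47e-05). runx3 had 7.75, 12.4 and 11.4 FPKM with bacteria, against 61.1, 47.4 and 39.4 FPKM with PBS (log2 change -2.13 ± 0.24, adjusted p = 0.000113). Both fell in every pair. etv6 rose and had 66.1, 49.1 and 42.6 FPKM with bacteria, against 8.80, 25.7 and 25.5 FPKM with PBS (log2 1.47 ± 0.37); without PBS replicate 1, its lowest library, the log2 change was 0.90. cebpg rose slightly (log2 0.79 ± 0.12). In B cell and lymphocyte signalling 2 of 16 tested members rose and 5 fell, with a median log2 change of -0.40. These shares, 12.5% and 31.25% of the list, were not above those of all genes. The kinase gene btk had 19.7, 25.4 and 28.5 FPKM with bacteria, against 144, 109 and 83.8 FPKM with PBS (log2 change -2.13 ± 0.22, adjusted p = 7.19e-05), and swap70 fell too (log2 -2.55 ± 0.26). pik3ap1, an adaptor of phosphoinositide 3-kinase, rose (log2 1.45 ± 0.21).

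Markers of the cell types that a head-kidney preparation can hold fell for several types. Macrophage markers (csf1r, marco and mafb tested) summed to 174 to 216 FPKM with bacteria and 303 to 482 FPKM with PBS, and all 3 fell. Thrombocyte markers summed to 25.1 to 67.3 FPKM with bacteria and 85.6 to 188 FPKM with PBS, all 4 tested members fell, and thbs1b was listed at 0 in all 6 libraries. Progenitor markers summed to 66.3 to 86.8 FPKM with bacteria and 239.8 to 347 FPKM with PBS, and all 5 tested members fell, among them myb (log2 -1.39 ± 0.14); after median-ratio scaling 3 fell, and leaving out any library but PBS replicate 1 also gave 3. B cell markers summed to 28.0 to 40.1 FPKM with bacteria and 117 to 208 FPKM with PBS, with 2 of 5 lower, btk and swap70, which other cells also express; the antigen receptor genes cd79a (-0.72 ± 0.30) and cd79b (-0.75 ± 0.37) were not called. Neutrophil markers summed to 659 to 1263 FPKM with bacteria and 522 to 679 FPKM with PBS, with 2 of 3 higher, ncf1 and the gelatinase gene mmp9 (log2 1.09 ± 0.20), and csf3r not called (-0.24 ± 0.20). T cell markers summed to 6.21 to 8.05 FPKM with bacteria and 8.34 to 13.5 FPKM with PBS, with 0 of 4 called by limma and 2 lower at an unadjusted p under 0.05.

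Fibroblast markers summed to 12.4 to 22.1 FPKM with bacteria and 46.9 to 74.3 FPKM with PBS, and both tested members, pdgfrb (log2 -2.44 ± 0.20) and tagln (-1.60 ± 0.21), fell; the collagen genes col1a1 and col1a2 and the gene lum were listed at 0 in all 6 libraries. Of kidney tubule markers 1 of 6 was tested, tinagl1, and pax2 was listed at 0 in all 6 libraries. Endothelial markers summed to 39.0 to 80.5 FPKM with bacteria and 4.66 to 25.0 FPKM with PBS; flt1 rose, and the scavenger receptors stab1 (-2.55 ± 0.35) and stab2 (-0.71 ± 0.22) fell. The single erythroid marker stayed at 0.16 to 0.23 FPKM with bacteria and 0.22 to 0.55 FPKM with PBS, and interrenal markers at 0 to 0.67 FPKM with bacteria and 0.27 to 3.46 FPKM with PBS. Macrophages, granulocytes and thrombocytes were thus present in PBS cultures by their markers. The single erythroid marker was close to 0, which is too little to judge red cell transcripts. Macrophage, thrombocyte, progenitor, eosinophil and cytotoxic markers fell. The eosinophil and cytotoxic lists held 1 tested gene each, epx and granzyme. Both, and csf1r of the macrophage list, are among the leading falls above. The marker falls are therefore in part the same values and not separate support. Their part in the other falls was not tested.

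Genes of ribosome assembly and RNA polymerase I fell: 1 of 79 tested members rose and 50 fell (1 and 22 with median-ratio scaling), with a median log2 change of -0.64, that is 63.3% lower, against 38.6% of all genes. The excess over all genes rested on the pairing and the scaling: 9 fell without the pairing, where 26.3% of all genes did, and 18 after quantile normalization, where 23.1% did. rcl1, which processes ribosomal RNA, had 8.19, 7.05 and 11.5 FPKM with bacteria, against 15.9, 26.8 and 20.4 FPKM with PBS (log2 -1.15 ± 0.25). nop56 had 13.4, 25.7 and 32.0 FPKM with bacteria, against 34.0, 51.3 and 68.1 FPKM with PBS (log2 -1.10 ± 0.17), a call lost without the pairing (log2 -1.10, adjusted p = 0.0578). Within each pair nop56 was lower with bacteria, although the groups came close to each other across pairs. The rise was polr1e, a subunit of the polymerase (log2 1.03 ± 0.25). Among mitochondrial ribosomal proteins 0 of 72 tested members rose and 35 fell (2 and 10 with median-ratio scaling), with a median log2 change of -0.54; at an unadjusted p under 0.05, 0 rose and 41 fell. Without the pairing 7 of these fell, where 26.3% of all genes did, and after quantile normalization 9, where 23.1% did. With median-ratio scaling 23.8% of all genes fell. The excess of falls over all genes did not hold in these settings. mrpl23 had 3.73, 9.05 and 9.86 FPKM with bacteria, against 23.4, 15.7 and 22.4 FPKM with PBS (log2 -1.40 ± 0.27). mrpl40 fell (log2 -1.01 ± 0.18), but not without the pairing (log2 -1.01, adjusted p = 0.0746). For mitochondrial ribosomal proteins the counts were 0 higher and 16 lower without bacteria replicate 1 and 0 higher and 17 lower without bacteria replicate 3. Of mitochondrial import and dynamics genes 4 of 45 tested members rose and 14 fell (8 and 7 with median-ratio scaling), with a median log2 change of -0.08, among them tfam, which packages mitochondrial DNA (log2 -0.94 ± 0.17). With a library left out this count was 5 higher and 8 lower without bacteria replicate 3.

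Of translation factors and tRNA synthetases 9 of 73 tested members rose and 19 fell (15 and 9 with median-ratio scaling), with a median log2 change of -0.07. That is 12.3% and 26.0% of the list, against 14.8% and 38.6% of all genes. eif4e2, a cap-binding repressor, had 5.71, 7.85 and 9.48 FPKM with bacteria, against 26.8, 18.4 and 17.3 FPKM with PBS (log2 -1.33 ± 0.23). The initiation factor gene eif4g2 rose (log2 0.73 ± 0.20), a call lost without PBS replicate 2 (log2 0.53, adjusted p = 0.0614) or bacteria replicate 2 (log2 0.64, adjusted p = 0.0651). Translation counts were 9 higher and 32 lower without PBS replicate 1, 5 higher and 16 lower without PBS replicate 2, 3 higher and 11 lower without bacteria replicate 1 and 3 higher and 15 lower without bacteria replicate 2. Of splicing genes 1 of 80 tested members rose and 32 fell (2 and 13 with median-ratio scaling), with a median log2 change of -0.37, close to the background of falls. hnrnpa3 (log2 -1.91 ± 0.26) and srsf11 (-1.36 ± 0.20) were examples, chosen among genes without overlap. Splicing counts were 0 higher and 20 lower without bacteria replicate 1. In DNA replication and cell division 1 of 68 tested members rose and 26 fell (1 and 14 with median-ratio scaling), with a median log2 change of -0.41. The 38.2% that fell was close to the 38.6% of all genes, while the 1.47% that rose was below the 14.8% of all genes. cenpf, a centromere protein of dividing cells, had 4.64, 7.63 and 7.43 FPKM with bacteria, against 28.9, 21.8 and 24.6 FPKM with PBS (log2 change -1.80 ± 0.19, adjusted p = 7.7e-05). The cyclin gene ccnb3 fell too (log2 -1.61 ± 0.23). Replication counts were 1 higher and 17 lower without bacteria replicate 3. Of chromatin enzymes 3 of 70 tested members rose and 27 fell (11 and 15 with median-ratio scaling), with a median log2 change of -0.31. Their share of falls, 38.6%, was that of all genes, while their share of rises, 4.29%, was below the 14.8% of all genes. hdac9, a histone deacetylase, had 2.85, 5.78 and 5.18 FPKM with bacteria, against 17.1, 28.1 and 22.2 FPKM with PBS (log2 -2.08 ± 0.20), and ezh1 fell by a similar amount (-1.80 ± 0.33), while the demethylase gene kdm7a rose (0.76 ± 0.15). Chromatin counts were 1 higher and 17 lower without bacteria replicate 1 and 1 higher and 18 lower without bacteria replicate 2.

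The balance of rises and falls depended on how the libraries were scaled. As deposited, 27.6% of called genes were higher. Setting all FPKM sums equal gave 1675 rises and 4921 falls (25.4% higher), and upper-quartile scaling 2080 and 4256 (32.8%). The equal-sum setting also raised all values, so the pseudocount of 1 weighed less. Falls of at least 1 log2 unit numbered 2575 there, against 1964 as deposited. Quantile normalization gave 2392 and 2866 (45.5%), and median-ratio scaling 2919 and 2954 (49.7%). Under all 4 scalings 1613 of the 1833 rises (88.0%) were kept, and 2415 of the 4801 falls (50.3%). Falls were the larger group under each of the 4, with near parity under median-ratio scaling.

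The larger the change, the more the balance leaned to rises. As deposited, 990 genes rose and 1964 fell by at least 1 on the log2 scale, 344 rose and 333 fell by at least 2, 147 rose and 66 fell by at least 3, and 69 rose and 17 fell by at least 4. After median-ratio scaling, 1477 rose and 1162 fell by at least 1, and 460 rose and 200 fell by at least 2. With a pseudocount of 0.1 FPKM the order at 2 log2 units turned, with 469 rises and 706 falls, and at 4 it was 127 and 65. Of the 168 genes called among 170 named by rule, 156 kept call and direction under all 4 scalings. Most of these were picked from this same contrast for clear, separate changes, so their share does not describe all calls. Over all calls, 1613 of 1833 rises and 2415 of 4801 falls were kept.

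**Figure D3:**
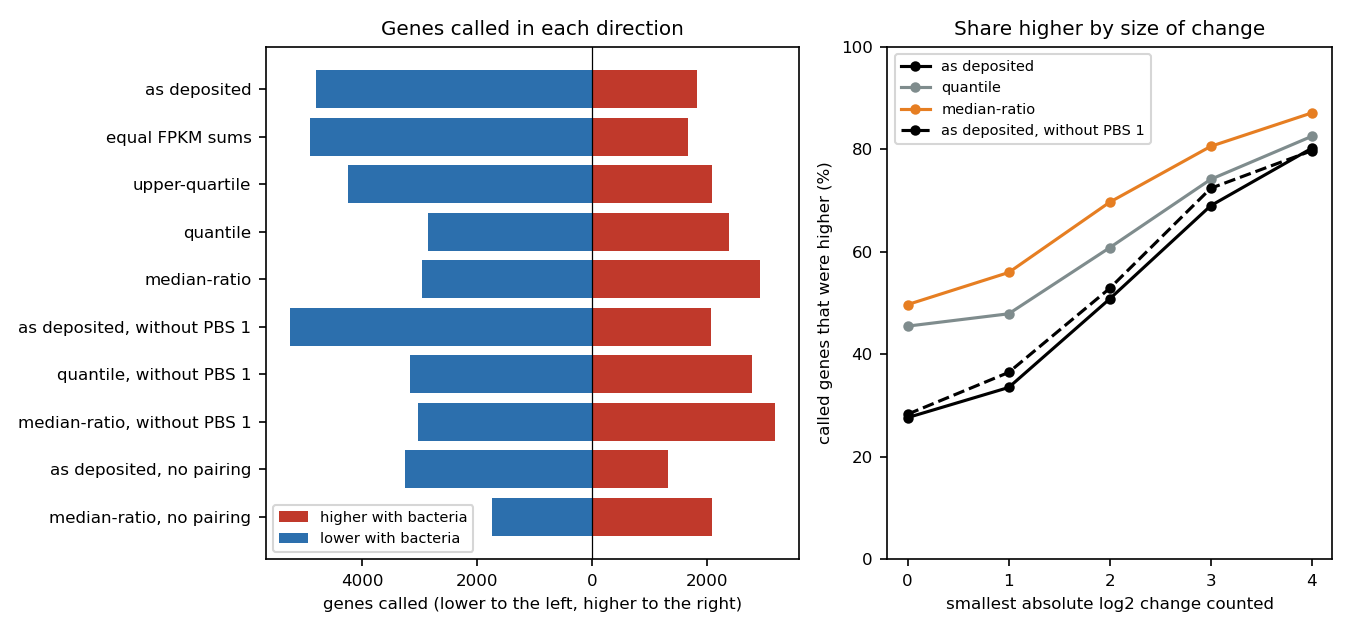
Left, genes called lower (blue, to the left) and higher (red, to the right) with bacteria as deposited, under 4 scalings, without PBS replicate 1 and without pairing by replicate number. Right, share of called genes that were higher, counted above a smallest absolute log2 change of 0 to 4; it climbs with size in every line, and the line without PBS replicate 1 runs close to that of the deposited values.

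Leaving out PBS replicate 1 hardly moved this balance. Without it 2074 genes rose and 5257 fell (28.3% higher), with a median log2 change of -0.30, against -0.29 with it. The same held after median-ratio scaling, with 3190 rises and 3030 falls (51.3% higher), and after quantile normalization, with 2778 and 3170 (46.7%). Without the other libraries in turn, the share of rises ran from 27.1% to 29.0%. The number of calls changed more, between 4809 without bacteria replicate 1 and 7331 without PBS replicate 1. Without the pairing 1330 genes rose (10.7%) and 3264 fell (26.3%). Besides the lists already given without the pairing, counts that moved by at least 4 genes and by over 1.5 times were then 5 higher and 3 lower for the citric acid cycle and itaconate, 4 higher and 5 lower for amino acid and polyamine metabolism, 1 higher and 4 lower for iron and heme, 4 higher and 9 lower for chaperones, 4 higher and 5 lower for unfolded protein response, 1 higher and 11 lower for translation factors and tRNA synthetases, 1 higher and 18 lower for splicing, 0 higher and 11 lower for DNA replication and cell division, 4 higher and 7 lower for MAP kinases and DUSP phosphatases, 20 higher and 21 lower for solute carriers, 0 higher and 7 lower for matrix and matrix proteases, 4 higher and 8 lower for ubiquitin-conjugating and deubiquitinating enzymes and 3 higher and 5 lower for mitochondrial import and dynamics.

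The library changed which gene groups fell instead. Against all other 11 libraries of the series, PBS replicate 1 was at least 1 log2 unit lower for 685 genes (5.51% of those tested) and higher for 143 (1.15%), while no other library was lower for more than 1 gene or higher for more than 11. Of 66 cytosolic ribosomal protein genes it was that far below for 45, of 42 oxidative phosphorylation genes for 14, of 72 mitochondrial ribosomal protein genes for 14 and of 26 proteasome genes for 6. The median log2 change of the cytosolic ribosomal proteins was 1.74 in pair 1, -0.75 in pair 2 and -0.37 in pair 3. With all libraries 0 of 66 rose and 6 fell, with a median of 0.21; at an unadjusted p under 0.05, 0 rose and 10 fell. The count of falls was 3 without bacteria replicate 1, 3 without bacteria replicate 2 and 4 without PBS replicate 2. Without PBS replicate 1, 0 rose and 65 fell, with a median of -0.60. There 42.3% of all genes fell, with a median of -0.30. With all libraries after median-ratio scaling 0 of this list rose and 0 fell, with a median of 0.57. Median-ratio scaling without PBS replicate 1 moved log2 changes up from the main fit by a median of 0.37. This value is for genes with at least 20 FPKM in all 6 libraries.

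Oxidative phosphorylation genes, which encode the respiratory chain and ATP synthase, followed the same pattern. Their median log2 change was 0.46 in pair 1, -0.54 in pair 2 and -0.57 in pair 3. With all libraries 0 of 42 tested members rose and 11 fell (0 and 3 with median-ratio scaling), with a median log2 change of -0.23. Without PBS replicate 1 the count was 0 higher and 33 lower, with a median of -0.54, where 42.3% of all genes fell, with a median of -0.30. The count was 0 higher and 7 lower without bacteria replicate 1 and likewise without bacteria replicate 3, and 0 higher and 6 lower without the pairing. atp5h, of ATP synthase, had 65.7, 76.3 and 83.3 FPKM with bacteria, against 182, 143 and 126 FPKM with PBS (log2 -0.98 ± 0.17), and ndufb5, of complex I, fell likewise (-0.98 ± 0.16). PBS replicate 1 was the highest PBS library for atp5h. The mitochondrial ribosomal protein genes had medians of -0.47, -0.34 and -0.76 in the 3 pairs, the NF-kB genes of 1.07, 0.75 and 0.57. Each of these 2 lists thus had 1 direction in every pair. For the mitochondrial list this was also the direction of all tested genes, whose medians were -0.34, -0.26 and -0.31.

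**Figure D4:**
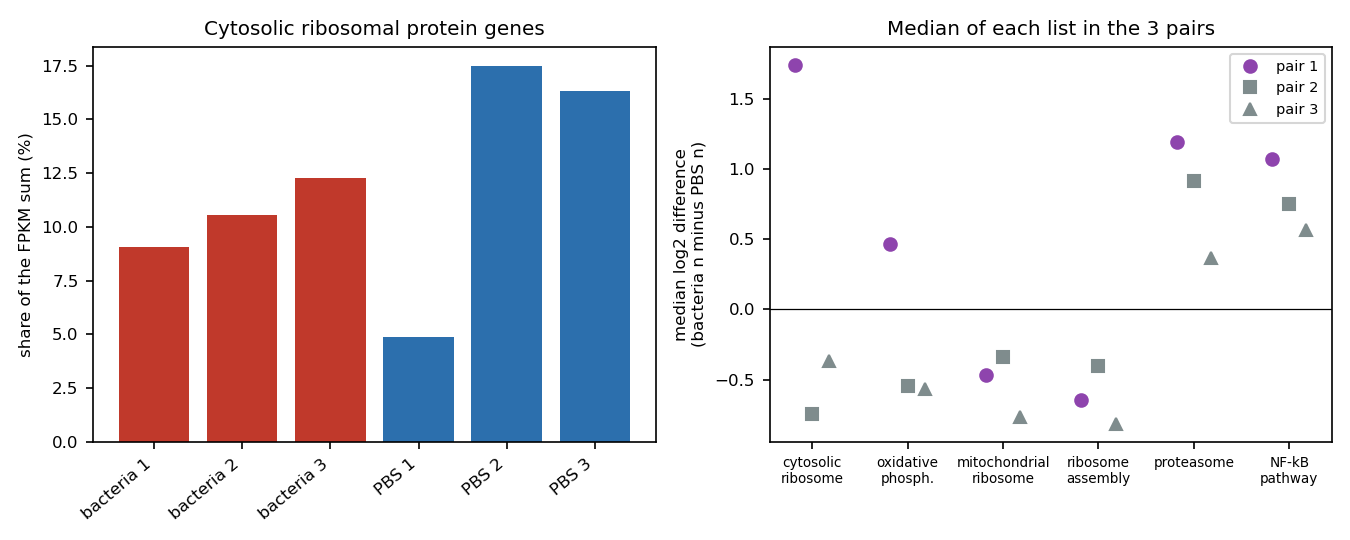
Left, share of each library's FPKM sum held by cytosolic ribosomal protein genes (%), 3 bacteria and 3 PBS libraries; PBS replicate 1 is the lowest at 4.89%. Right, median log2 difference of 6 gene lists in each pair (bacteria n minus PBS n). Pair 1 has the opposite sign to pairs 2 and 3 for the cytosolic ribosome and oxidative phosphorylation. The other 4 lists have 1 sign in all pairs, and the median of all tested genes is negative in each pair.

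Between pairs, the log2 differences of all tested genes correlated at 0.897 for pairs 2 and 3, at 0.741 for pairs 1 and 2 and at 0.682 for pairs 1 and 3 (Pearson's r across 12423 genes, which are not independent). The pair medians were -0.34, -0.26 and -0.31, and 2403 genes were higher with bacteria in all 3 pairs, 5978 were lower or equal in all 3, and 4042 were mixed.

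Most genes that changed with bacteria changed in the same direction when nitrite was present. Co-treatment against nitrite, a comparison that shares no library with bacteria against PBS, called 14.7% of genes higher and 36.2% lower. Both comparisons came from 1 fit with 1 estimate of spread per gene and 1 replicate block, so their calls are not independent. Of the 1833 genes that rose with bacteria alone, 1521 also rose there, and of the 4801 that fell, 3872 also fell. Among the 168 named and called genes, mostly chosen for clear changes with bacteria alone, 156 were called with the same sign. In cells with nitrite, the log2 change of acod1 was 8.01 ± 0.34 and that of il-8 was 8.05 ± 0.67, while epx changed by -6.03 ± 0.33 and csf1r by -4.03 ± 0.30. The test of the difference between both bacteria effects, limma's interaction term, called 1 of 12423 genes (0.00805%), with 192 genes at an unadjusted p under 0.05. That is a smaller share of genes than a threshold of 0.05 would pass with no difference at all. The 192 are therefore not read as further differences. A p that misses the threshold does not show that the effects were equal.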

How the data were processed

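Per the labels' protocols, RNA was taken up in Trizol and turned into TruSeq libraries for an Illumina HiSeq. The submitters' processing notes name Trimmomatic 0.30, HISAT2 2.0.1 and HTSeq 0.6.1. The sources used here give no genome build, annotation or program for the FPKM. The authors deposited FPKM of 58070 transcripts in 12 libraries, without counts, so depth and counting intervals are unknown, and an exact 0 can be a failed estimate.

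FPKM were added up over the transcripts of each of 28921 symbols. The 12423 genes averaging 1 FPKM or more were analysed as log2(FPKM + 1), a scale that understates the change of low genes. LOC identifiers, 5658 of these, have no name in the table. limma 3.58.1 (R 4.3.3) was run on all 12 libraries with a mean-variance trend, group, and replicate number as a block (6 residual degrees of freedom); Benjamini-Hochberg adjustment covered every tested gene, at a threshold of 0.05. The scripts were tested on simulated data. Replicate numbers come from the titles. Deviations from the group means correlated positively in all 18 same-number pairs of libraries (r of 0.416 to 0.919 across genes) and in none of the 36 pairs with different numbers, and each of the 12 libraries was closest to one of its own number. For the 3 same-number pairs of bacteria and PBS, r was 0.418 to 0.517, at the low end of that range. Deviations cancel out within a group, so the negative values at different numbers partly follow from the positive ones at the same number. They are not separate evidence. Libraries were paired by number on the ground of the same-number values.

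Members, lists and tests were chosen with earlier results of these data known. Named genes are the 12 first rises and falls, ranked by smallest absolute pair difference. They had to be called, with a symbol, separate groups, 1 sign in all 3 pairs and 5 FPKM or more on average in the higher group. Up to 2 genes per direction from each of 55 lists were named under the same conditions. Separate groups and a shared sign were thus set by the choice for these genes. A panel was added whatever its values, giving 170 in all. Some with unsteady calls and some others are not reported here, and list members outside the rule are named to complete a list's calls or were picked with their values in view. Symbols were matched to lists by name, less 15 false matches. Alternatives were pseudocounts of 0.1 and 3 FPKM, no filter or a 5 FPKM minimum, 4 scalings, no block, the 6 libraries alone, each library left out, and 1 scaling added after seeing the data.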

Additional observations from a re-analysis of the deposited data

Results flagged for a closer look

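LOC100692258 was the gene whose bacteria effect differed between cells without and with nitrite. Its levels were 17476, 20799 and 18949.5 FPKM with bacteria, against 9527, 7295 and 8120.2 FPKM with PBS. In the cells that also received nitrite it was listed at 0 in all 3 co-treatment libraries, against 10336, 9187 and 9558 FPKM with nitrite alone. The bacteria effect with nitrite minus that without it was -14.44 ± 0.27 on the log2(FPKM + 1) scale, with an adjusted p of 6.32e-09 for limma's interaction term. Bacteria against PBS alone gave a log2 change of 1.20 ± 0.19 (adjusted p = 0.000841), which was 0.29 after quantile normalization (adjusted p = 0.269). An exact 0 beside such high values can be a failed estimate, and this was not tested. The table gives the identifier no name.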

How the results depend on the processing

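The count of called genes (6634 as deposited) was 4343 with a minimum mean of 5 FPKM, 3723 in the 6 libraries alone with the replicate block, and 4594 (1330 higher and 3264 lower, 29.0% higher) with no replicate block, so the pairing added calls without turning the balance; with no replicate block and median-ratio scaling it was 3834. Rises (1833) numbered 2919 after median-ratio scaling, 3190 and 2778 after median-ratio and quantile scaling without PBS replicate 1, and 1134 in the 6 libraries. Falls (4801) numbered 2818 with the 5 FPKM filter, 2954 and 2866 after median-ratio and quantile scaling, 3030 and 3170 when these also left out PBS replicate 1, 2589 in the 6 libraries and 1743 with no replicate block and median-ratio scaling. The share of rises among calls (27.6%) was 27.5% and 27.7% with pseudocounts of 0.1 and 3, 26.7% with no filter, 35.1% with the 5 FPKM filter, 49.7%, 45.5%, 32.8% and 25.4% under median-ratio, quantile, upper-quartile and equal-sum scaling, 30.5% in the 6 libraries, 28.3% without PBS replicate 1 (51.3% and 46.7% with median-ratio and quantile scaling as well), 28.5% without replicate 1 of every group, 54.5% with no replicate block and median-ratio scaling, and 23.1% with FPKM equalised outside ribosomal protein genes, a scaling chosen after seeing the data. With each library left out it ran from 27.1% to 29.0%. The median log2 change (-0.29) was, in the same order, -0.33, -0.22, -0.047, -0.18, 0.0058, -0.051, -0.21, -0.36, -0.29, -0.30, -0.040, -0.051, -0.30, 0.0058 and -0.37, and -0.31 to -0.29 with each library left out. The cause of these differences was not tested, beyond the fewer genes or samples that some settings use by construction.

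Of the 170 named genes, 162 kept call and direction after median-ratio scaling, 162 after quantile normalization, 168 under upper-quartile and under equal-sum scaling, 159 with no replicate block, 153 with no replicate block and median-ratio scaling, 148 in the 6 libraries alone with the replicate block, and 156 to 168 with each library left out. The named genes were mostly chosen from this contrast for clear, separate changes, so their steadiness is not that of all calls. bcl2, not called, was 0.11 after quantile normalization and 0.14 when PBS replicate 1 was left out as well, against -0.22 as deposited. The interaction called 1 gene as deposited. FPKM to 2 decimals and the unknown depth limit what can be said of genes near 0, and 3 libraries per group limit the precision of every change.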
